A study of Homo sapiens with 6 samples.

Results

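Heme oxygenases open the heme ring, biliverdin reductases turn the biliverdin that results into bilirubin, and the iron that is set free is stored in ferritin or exported. HMOX1 is the inducible heme oxygenase and HMOX2 the constitutive one, and the repressor BACH1 holds HMOX1 down until heme binds to it. Iron-regulatory proteins bind hairpins in ferritin and transferrin receptor mRNAs when iron is scarce, which blocks ferritin translation and protects the receptor mRNA from decay.

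The genes described here are 10 genes of heme breakdown, heme synthesis and iron handling, of 32353 in the count table: HMOX1, HMOX2, BLVRA, BLVRB, FTH1, FTL, TFRC, SLC40A1, FECH and BACH1. They were chosen by gene symbol with the results of the same comparison already known, among them the change of HMOX1, so their differences are descriptions and not independent evidence. Of the 10 genes, 9 had a row in the count table and all 9 passed the filter on low counts, among 17887 tested genes. The iron exporter gene SLC40A1 was not analysed here.

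The RNA came from CAL27, an established line grown from a human squamous carcinoma of the tongue. In one group the cells overexpressed RBM24, an RNA-binding protein (3 libraries), and in the other they had received a control plasmid (3 libraries). The labels do not give the vector, the time after its delivery, or whether the cells were 1 clone. The study asked which genes and splicing events RBM24 alters in these cells; only gene levels are given here. Nothing in the labels tells whether replicates came from separate cultures, so a p-value measures only the spread between these libraries, which may be technical.

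Each library held between 53558773 and 68804210 gene counts. RBM24 stood at 34.0, 29.9 and 34.1 FPKM in the RBM24 libraries, against 0.61, 0.78 and 0.96 FPKM in the control libraries (FPKM is the deposited level scaled to gene length and library size). Over all tested genes, 1.54% passed the edgeR quasi-likelihood test at a Benjamini-Hochberg adjusted p below 0.05, 0.855% as higher and 0.682% as lower, which is 153 and 122 genes. The number that passed fell to 70 higher and 31 lower without RBM24 library 1, and to 61 and 29 without RBM24 library 2. The lower genes numbered 69 without control library 1 and 198 without control library 3. Of 10 squamous epithelial markers all were tested and 0 passed, with a summed level of 2050.1 to 2058 CPM (counts scaled to a common library size) in the RBM24 libraries and 1847.8 to 1947.2 CPM in the control libraries; its part in the results below was not tested. Of 12 erythroid markers 5 had a row, with a summed level of at most 0.148 CPM in the RBM24 libraries and 0 CPM in the control libraries. Of 10 macrophage markers 3 passed the filter (CD14, CD68 and CSF1R), and the summed level was 21.3 to 22.6 CPM in the RBM24 libraries and 20.5 to 24.1 CPM in the control libraries. Most of that sum was CD14 alone, at 17.8 to 18.8 CPM in the RBM24 libraries and 17.5 to 20.3 CPM in the control libraries. PTPRC, the pan-leukocyte marker, had a count of 3 in control library 1 and 0 in every other library of either group.

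HMOX1 was 1.70-fold higher with RBM24, while the 8 other tested genes had log2 fold changes between -0.18 and 0.074 and did not pass (lowest adjusted p 0.276, edgeR). Thus 1 of 9 tested genes was called, against 1.54% of all tested genes, a count that says nothing about the group because the contrast was known when it was chosen. The median log2 fold change was 0.0032 over the 9 genes and -0.0037 over all tested genes. A difference in level in these bulk samples cannot tell fewer cells of a kind from less RNA per cell.

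**Figure D1:**
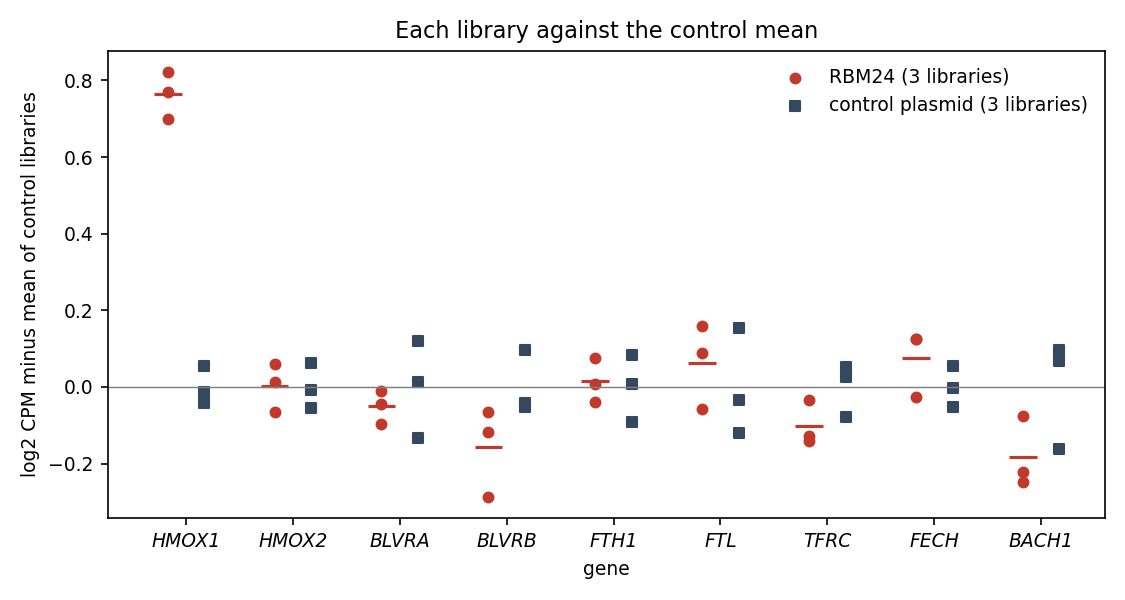
Log2 CPM of 9 genes in each library minus the mean of the 3 control libraries, with RBM24 libraries (circles, bar at their mean) left of control libraries (squares). The 3 RBM24 libraries lie at 0.82, 0.77 and 0.70 for HMOX1 and between -0.29 and 0.16 for every other gene.

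HMOX1 (ENSG00000100292.18, GRCh38 chromosome 22, 35380361 to 35394214, plus strand) had 7.23, 7.03 and 6.72 FPKM in the RBM24 libraries, against 4.10, 3.96 and 4.01 FPKM in the control libraries. The raw counts were 1239, 937 and 1015 in the RBM24 libraries and 580, 541 and 620 in the control libraries. The lowest RBM24 library exceeded the highest control library, and within each group the values stayed close together. The means were 17.3 ± 0.729 CPM with RBM24 and 10.2 ± 0.355 CPM with the control plasmid (SD, n = 3 each). In the fit the log2 fold change was 0.77 (SE 0.0705, 95% interval 0.62 to 0.92; edgeR adjusted p = 1.93e-05). Leaving out any single library moved it only between 0.74 and 0.80, with all 6 of these fits passing. Among the 153 genes called higher, HMOX1 ranked 41 by fold, and 10 among those whose mean log2 CPM was 2 or more.

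HMOX2 (ENSG00000103415.12, chromosome 16, 4474690 to 4510347, plus strand), which works on heme without needing induction, had 25.0, 24.4 and 23.2 FPKM in the RBM24 libraries, against 23.1, 24.5 and 23.4 FPKM in the control libraries. The groups overlapped throughout, and the log2 fold change of 0.0032 had a 95% interval of -0.11 to 0.11 (edgeR adjusted p = 0.990). That interval lies wholly below the interval of HMOX1. HMOX2 shares exon sequence with NMRAL1 on the opposite strand, which had a log2 fold change of -0.11 (edgeR adjusted p = 0.400). Strand use in counting is not given, so reads within the shared stretch may not be told apart. The length of that stretch was not measured.

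Per length, HMOX2 was the more abundant heme oxygenase mRNA in every library. HMOX1 made up 22.4%, 22.3% and 22.4% of the summed HMOX1 and HMOX2 FPKM in the RBM24 libraries, against 15.1%, 13.9% and 14.7% in the control libraries. The share was thus higher in each RBM24 library than in any control library. Its SD (n = 3 each) was 0.0456 percentage points with RBM24 and 0.592 with the control plasmid. An SD of 3 values is itself uncertain, and whether the spreads differ was not tested. The sum of both genes was 31.2 ± 1.16 FPKM with RBM24 and 27.7 ± 0.693 FPKM with the control plasmid (SD, n = 3 each), a ratio of 1.13 between the means. The ratio for HMOX1 alone was 1.74 on the same scale.

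**Figure D2:**
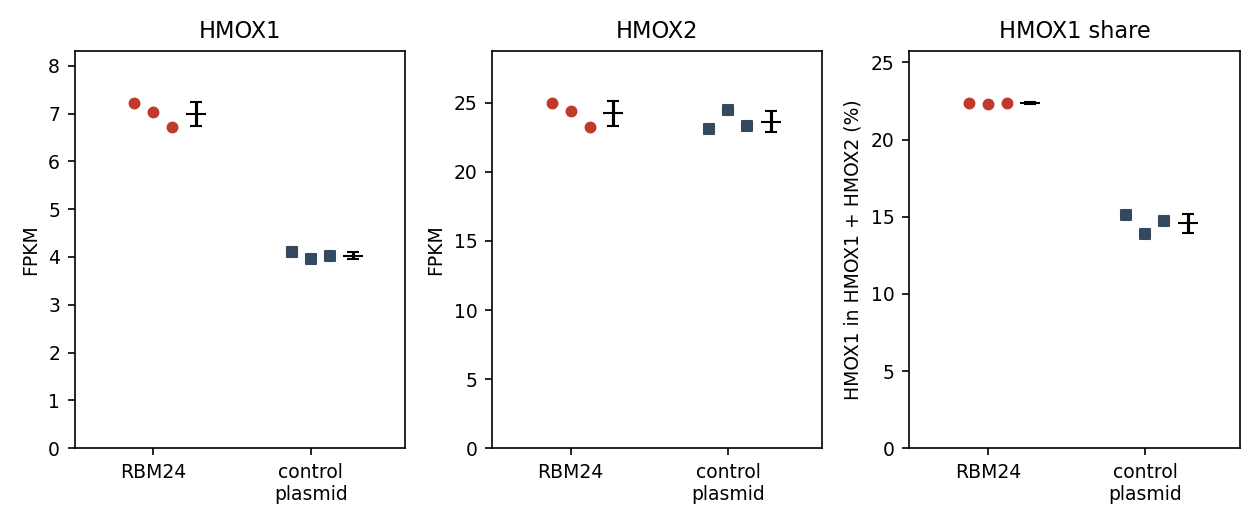
FPKM of HMOX1 and HMOX2 and the percent of HMOX1 in their sum, by library, with RBM24 left of control plasmid; the bar beside each group is the mean and SD of 3 libraries. HMOX1 averages 6.99 FPKM with RBM24 and 4.02 with the control plasmid, HMOX2 24.2 and 23.6, and the HMOX1 share 22.4% and 14.6%.

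BACH1 (ENSG00000156273.16, chromosome 21, 29194071 to 29630751, plus strand), the heme-binding repressor of HMOX1, had 4.01, 4.11 and 4.58 FPKM in the RBM24 libraries, against 4.92, 4.15 and 5.04 FPKM in the control libraries. Control library 2 fell among the RBM24 libraries, so the groups overlapped. The log2 fold change was -0.18 (SE 0.0723, 95% interval -0.34 to -0.032), with an unadjusted p of 0.021 and an adjusted p of 0.276 (edgeR). It was -0.26 without control library 2 (edgeR adjusted p = 0.0578), the lowest adjusted p of its 17 alternative fits, and -0.14 without control library 1 (adjusted p = 0.482). The ratio of HMOX1 to BACH1 FPKM was 1.80, 1.71 and 1.47 in the RBM24 libraries and 0.833, 0.954 and 0.796 in the control libraries. The ratio was above 1 in each RBM24 library and below 1 in each control library on the deposited FPKM scale, which is per length. In CPM, which is not per length, it was 0.542, 0.514 and 0.442 in the RBM24 libraries and 0.251, 0.287 and 0.239 in the control libraries, with the RBM24 over control ratio of the means at 1.93 on both scales.

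The biliverdin reductases, which act after the heme oxygenases, did not pass. BLVRA (chromosome 7, 43758680 to 43807342, plus strand), the main reductase of adult bilirubin formation, had 26.4, 25.9 and 25.1 FPKM in the RBM24 libraries, against 25.9, 28.2 and 24.4 FPKM in the control libraries. The RBM24 values lay inside the range of the control values (log2 fold change -0.053, 95% interval -0.19 to 0.079; edgeR adjusted p = 0.785).

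BLVRB (chromosome 19, 40447765 to 40465840, minus strand), which also reduces flavins, had 44.4, 43.2 and 38.6 FPKM in the RBM24 libraries, against 43.3, 48.5 and 45.6 FPKM in the control libraries. On the FPKM scale the groups overlapped, while on the CPM scale the RBM24 libraries (77.1, 74.3 and 66.2) lay just below the control libraries (77.7, 86.2 and 78.3). HMOX1 and BLVRB were the 2 members whose CPM did not overlap between groups, as was the case for 18.1% of all tested genes. The log2 fold change of BLVRB was -0.15 (SE 0.0612; unadjusted p = 0.0223, edgeR adjusted p = 0.281). It ranged from -0.20 to -0.093 over 17 alternative fits, 0 of which called it. RBM24 library 3 held the lowest value of BLVRB and the highest BLVRA to BLVRB ratio, at 0.651, against 0.594 and 0.601 in the other RBM24 libraries and 0.536 to 0.599 in the control libraries.

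Ferritin mRNAs were the most abundant of the genes described here. By mean FPKM over the 6 libraries FTH1 ranked 7 and FTL 14 among the 31513 genes of the FPKM table, and FTH1 took 1.08% of all counts in the RBM24 libraries and 1.04% in the control libraries. FTH1 (chromosome 11, 61959718 to 61967660, minus strand) encodes the heavy chain, which oxidises iron for storage, and FTL (chromosome 19, 48965301 to 48966878, plus strand) the light chain, which helps to form the mineral core.

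FTH1 had 5157, 4955 and 4822 FPKM in the RBM24 libraries, against 4755, 5058 and 4641 FPKM in the control libraries. FTL had 3089, 2968 and 2692 FPKM in the RBM24 libraries, against 2465, 3008 and 2734 FPKM in the control libraries. The groups overlapped in both genes, and control library 1 held the lowest FTL value. The log2 fold changes were 0.014 for FTH1 (95% interval -0.13 to 0.16; edgeR adjusted p = 0.956) and 0.061 for FTL (95% interval -0.099 to 0.22; adjusted p = 0.796), and that of FTL was 0.0015 without control library 1. The FTH1 to FTL ratio was 1.67, 1.67 and 1.79 in the RBM24 libraries and 1.93, 1.68 and 1.70 in the control libraries. At this abundance counting error is small, and the spread between libraries sets the width of these intervals.

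Ferritin genes have many processed pseudogenes, so their reads can be assigned to copies. The 18 FTH1 pseudogenes with a row together held 0.211% to 0.250% of the FTH1 counts, and the 4 FTL pseudogenes 0.020% to 0.029% of the FTL counts, over the 6 libraries. Of these 22 pseudogenes 14 were tested and 0 passed. The most abundant, FTH1P8 and FTH1P2, had log2 fold changes of 0.0095 (edgeR adjusted p = 0.980) and -0.070 (adjusted p = 0.818). FTH1 also overlaps exons of BEST1 on the opposite strand.

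The hairpins that iron-regulatory proteins bind were located in GENCODE 29 transcripts on GRCh38, because they are the known binding sites through which iron status reaches these mRNAs. The pattern asked for a C, 5 bases that pair with 5 bases past the loop (G with T allowed), and the loop CAGTG followed by A, C or T, on the transcript strand alone. It was found once in the 5' UTR of FTL, once in the 5' UTR of FTH1 and 4 times in the 3' UTR of TFRC, and nowhere in protein-coding transcripts of HMOX1, HMOX2, BLVRA, BLVRB, FECH or BACH1. SLC11A2, SLC39A8, LCN2, HFE and NQO1, described below, also held 0 matches. Of 19702 protein-coding genes, 1.08% held a match. The sequences of FTL and TFRC are shown 5' to 3' as DNA letters, with the 6 loop bases in capitals.
FTL 5' UTR, chr19:48965336-48965362, plus strand: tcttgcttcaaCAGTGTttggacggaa
TFRC 3' UTR element 1, chr3:196050980-196051006, minus strand: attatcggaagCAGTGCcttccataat
TFRC 3' UTR element 2, chr3:196050576-196050602, minus strand: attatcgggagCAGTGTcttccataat
TFRC 3' UTR element 3, chr3:196050511-196050537, minus strand: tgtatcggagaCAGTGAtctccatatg
TFRC 3' UTR element 4, chr3:196050464-196050490, minus strand: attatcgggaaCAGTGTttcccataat

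The loop is common to all 5 printed elements up to its last base, while the stems of TFRC differ from that of FTL. A match describes the letters only. No match, as for SLC11A2, does not show that a transcript lacks such an element. Gene counts measure mRNA, so they carry the receptor side of this control and not the block of ferritin translation.

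TFRC (ENSG00000072274.13, chromosome 3, 196027183 to 196082189, minus strand), the receptor that brings in transferrin-bound iron, had 61.8, 61.8 and 66.8 FPKM in the RBM24 libraries, against 66.5, 62.5 and 70.8 FPKM in the control libraries. RBM24 library 3 lay inside the control range, and the other RBM24 libraries lay just below it. The log2 fold change was -0.10 (95% interval -0.22 to 0.017; edgeR adjusted p = 0.471), negative in all 17 alternative fits. The TFRC to FTH1 ratio was 0.0128 ± 0.000968 with RBM24 and 0.0139 ± 0.00146 with the control plasmid (SD, n = 3 each), a difference within the spread of the libraries.

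FECH (chromosome 18, 57548283 to 57586772, minus strand), whose enzyme puts iron into the heme ring as the last step of synthesis, had 1.72, 1.92 and 1.93 FPKM in the RBM24 libraries, against 1.69, 1.65 and 1.84 FPKM in the control libraries. It was the least abundant of the 9 genes per length, and the groups overlapped (log2 fold change 0.074, 95% interval -0.065 to 0.21; edgeR adjusted p = 0.689). In order of mean FPKM over all libraries the genes ran FTH1, FTL, TFRC, BLVRB, BLVRA, HMOX2, HMOX1, BACH1 and FECH. In that order BLVRA and HMOX2 are neighbours whose library values overlapped, at 24.4 to 28.2 and 23.1 to 25.0 FPKM. HMOX1 and BACH1 overlapped over the 6 libraries as well, with BACH1 the higher in each control library.

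**Figure D3:**
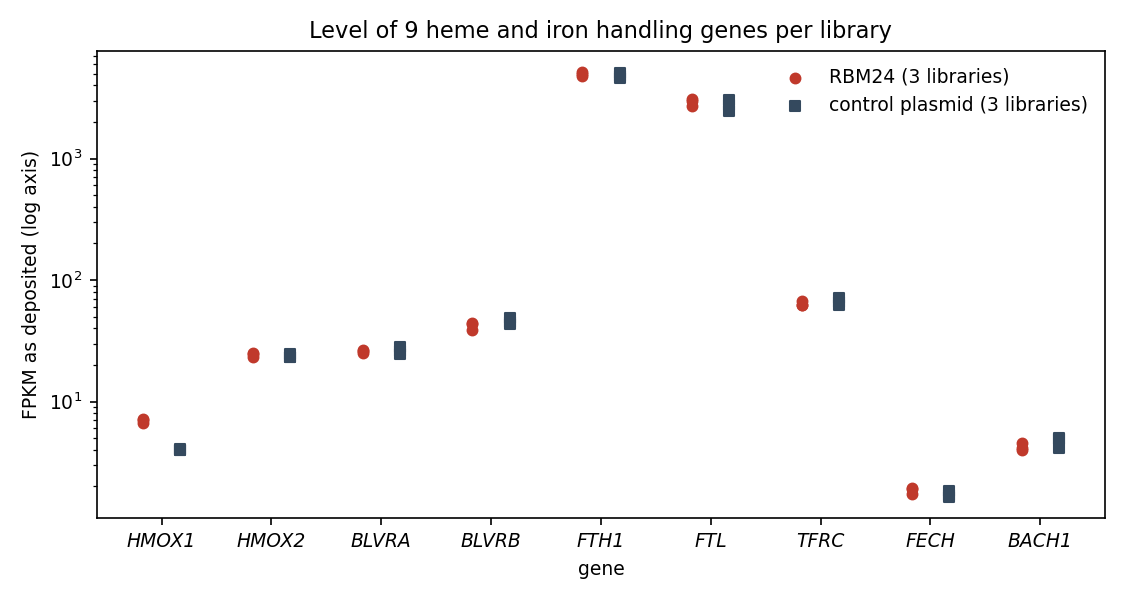
Deposited FPKM on a log axis of 9 genes in each library, RBM24 (circles) left of control plasmid (squares). The genes span from FECH, at a mean of 1.79 FPKM over all libraries, to FTH1, at 4898, and in HMOX1 the groups stand clear of each other.

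A wider set of 94 genes in 7 lists covers the rest of heme and iron metabolism; these lists too were drawn up with earlier results known. Of them 82 were tested, 1 was higher, 4 were lower and 77 did not pass (edgeR, adjusted p under 0.05), so 6.1% were called, against 1.54% of all tested genes; the lists were not chosen blind to these results, and the shares are a description. Their median log2 fold change was -0.021, against -0.0037 over all tested genes.

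Among 17 tested genes of iron uptake and release, 3 fell and 14 did not pass, with a list median of -0.13; of all tested genes 0.682% were called lower. SLC11A2 (chromosome 12, 50979401 to 51028566, minus strand), the divalent metal transporter that moves iron out of endosomes, had 6.64, 7.35 and 7.79 FPKM in the RBM24 libraries, against 8.66, 8.55 and 8.60 FPKM in the control libraries. It fell by 0.28 on the log2 scale (SE 0.0560; edgeR adjusted p = 0.0166). SLC39A8 (chromosome 4, 102251041 to 102431258, minus strand), a zinc, manganese and iron importer, had 5.77, 5.92 and 7.01 FPKM in the RBM24 libraries, against 9.28, 7.46 and 7.25 FPKM in the control libraries. All RBM24 libraries lay below all control libraries in both genes, though RBM24 library 3 came close to control library 3 in SLC39A8. SLC39A8 fell by 0.39 on the log2 scale (SE 0.0901; edgeR adjusted p = 0.0351), and by 0.26 without control library 1 (adjusted p = 0.0978). LCN2 (chromosome 9, 128149071 to 128153455, plus strand), the siderophore-binding lipocalin that epithelia also release in inflammation, had 165, 163 and 159 FPKM in the RBM24 libraries, against 194, 195 and 178 FPKM in the control libraries. It fell by 0.25 on the log2 scale (SE 0.0566; edgeR adjusted p = 0.0303). PCBP1, an iron chaperone and the most abundant of the list at 213 ± 2.57 FPKM with RBM24 and 199 ± 5.74 FPKM with the control plasmid (SD, n = 3 each), did not pass (log2 fold change 0.069, edgeR adjusted p = 0.608).

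Of 6 tested genes of iron sensing and hepcidin control, HFE fell and 5 did not pass (list median -0.040), beside 0.682% of all tested genes called lower. HFE (chromosome 6, 26087281 to 26098343, plus strand), a class I-like protein that binds the transferrin receptor, had 2.84, 3.28 and 3.15 FPKM in the RBM24 libraries, against 3.67, 3.70 and 3.86 FPKM in the control libraries. Each RBM24 library lay below each control library, and HFE fell by 0.31 on the log2 scale (SE 0.0657; edgeR adjusted p = 0.0229). ACO1, which encodes an iron-regulatory protein, had a log2 fold change of -0.13 (adjusted p = 0.209), and EPAS1, which encodes the hypoxia factor HIF-2 alpha, one of -0.037 (adjusted p = 0.811).

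Leaving out RBM24 library 1 or RBM24 library 2 ended these 4 calls. In those fits the genes called lower over all tested genes also fell, from 122 to 31 and 29. The log2 fold changes of SLC11A2, SLC39A8, LCN2 and HFE were -0.222, -0.345, -0.27 and -0.256 without RBM24 library 1. Without RBM24 library 2 they were -0.288, -0.359, -0.259 and -0.355. SLC11A2 and HFE passed in the 4 other fits that left out 1 library. Without RBM24 library 1, SLC11A2, SLC39A8, LCN2 and HFE had adjusted p of 0.132, 0.154, 0.0920 and 0.197 (edgeR), and without RBM24 library 2 of 0.0937, 0.189, 0.161 and 0.0602, so that 0 of the 4 passed in either fit. LCN2 also lost its call without RBM24 library 3 (0.110), control library 1 (0.0735) or control library 2 (0.0765), and DESeq2 gave SLC39A8 an adjusted p of 0.186. On log2(FPKM + 1) with limma the 4 genes had adjusted p of 0.178, 0.268, 0.133 and 0.182.

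In the list of BACH1 and NRF2 partners and targets, 20 genes were tested, 1 rose and 19 did not pass, with a median log2 fold change of 0.035, beside 0.855% of all tested genes called higher. NQO1 (chromosome 16, 69706996 to 69726951, minus strand), a quinone reductase that NRF2 induces, had 74.4, 72.0 and 72.1 FPKM in the RBM24 libraries, against 58.9, 61.8 and 58.3 FPKM in the control libraries. NQO1 rose by 0.25 on the log2 scale (SE 0.0506; edgeR adjusted p = 0.0159) with the groups fully apart; its call was lost without RBM24 library 1 (adjusted p = 0.105) or 2 (0.0942). TXNRD1, the thioredoxin reductase gene and next in abundance at a mean of 54.2 FPKM with RBM24 and 54.7 FPKM with the control plasmid, did not pass (log2 fold change -0.047, adjusted p = 0.785).

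None of the other 4 lists held a called gene under edgeR. They held 7 tested genes of heme synthesis (median log2 fold change -0.069) and 15 of heme transport and binding (-0.0090). There were also 5 of POR and the cytochrome b5 system, listed as electron donors (0.14), and 12 of iron-sulfur cluster assembly (-0.024). In heme synthesis the most abundant genes were UROD, the uroporphyrinogen decarboxylase (log2 fold change -0.0021, edgeR adjusted p = 0.995), and ALAS1, the first and rate-limiting enzyme outside red cells (0.017, adjusted p = 0.945). In heme transport they were TMEM14C (-0.048, adjusted p = 0.778), a mitochondrial porphyrin carrier, and PGRMC1 (0.080, adjusted p = 0.516), a heme-binding membrane protein. CYB5B (-0.043, adjusted p = 0.776) and CYB5R3 (-0.089, adjusted p = 0.650), both of the cytochrome b5 system, were the most abundant of the electron-donor list. Whether they serve the heme oxygenases was not tested. POR, the cytochrome P450 reductase of that list, had a log2 fold change of 0.14 (edgeR adjusted p = 0.320). CYB5R1 had one of 0.19 (edgeR adjusted p = 0.110), the lowest adjusted p of the electron-donor list. In the list 3 genes had positive and 2 negative log2 fold changes. GLRX5 (0.035, adjusted p = 0.862) and ISCU (-0.024, adjusted p = 0.890), an iron-sulfur carrier and scaffold, led the last list.

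**Figure D4:**
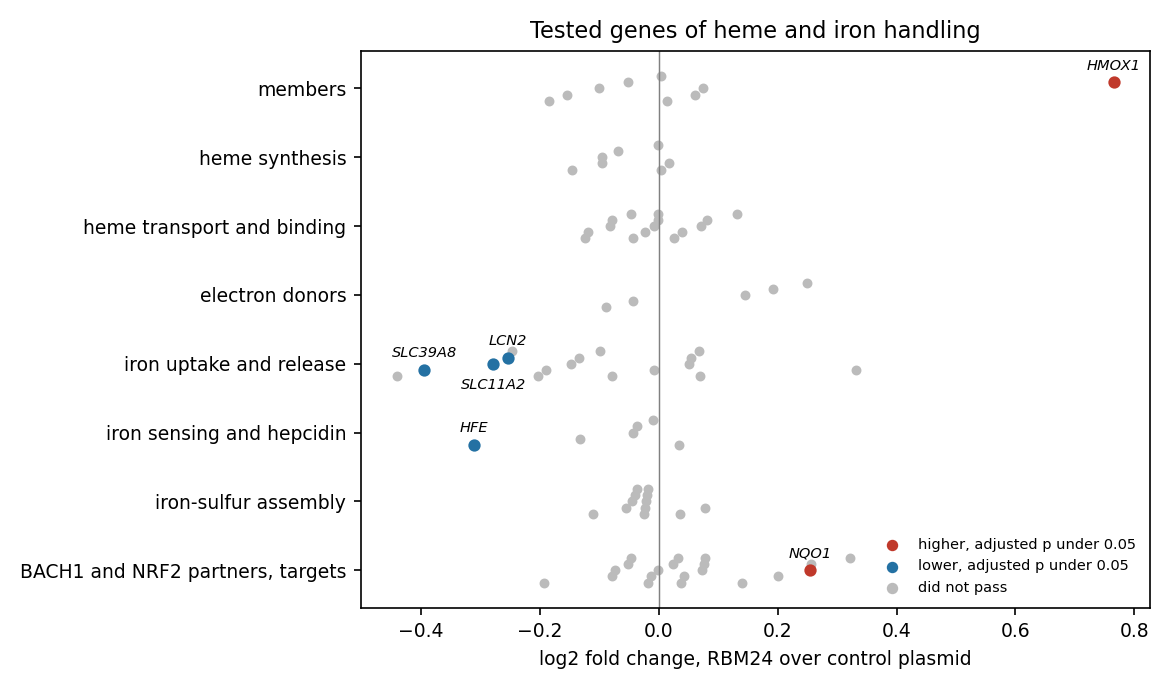
Log2 fold change (RBM24 over control plasmid, edgeR) of each tested gene, 1 row per list with vertical offsets only for legibility; red marks genes called higher, blue genes called lower at an adjusted p under 0.05, and grey the rest. HMOX1 stands at 0.77, the called genes of the other lists lie between -0.39 and 0.25, and all other members lie between -0.18 and 0.074.

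The profile of HMOX1 over the 6 libraries, in log2 CPM centred on its mean, was 0.44, 0.39 and 0.32 in the RBM24 libraries and -0.33, -0.39 and -0.42 in the control libraries. Of 11364 other tested genes whose mean log2 CPM was 2 or more, the nearest by root mean square difference over the 6 libraries were CDKN2D (0.057), which encodes a CDK4/6 inhibitor, ANKRD1 (0.112), a YAP target, and AKR1C3 (0.118), an aldo-keto reductase. PAK6 (0.127), a p21-activated kinase gene, and the long noncoding RNA OSER1-DT (0.133) followed. Their log2 fold changes were 0.72, 0.61, 0.54, 0.58 and 0.53, against 0.77 for HMOX1, and likeness here was measured with the group difference included. AKR1C3 has close paralogs, and how reads were assigned between them was not tested.

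**Figure D5:**
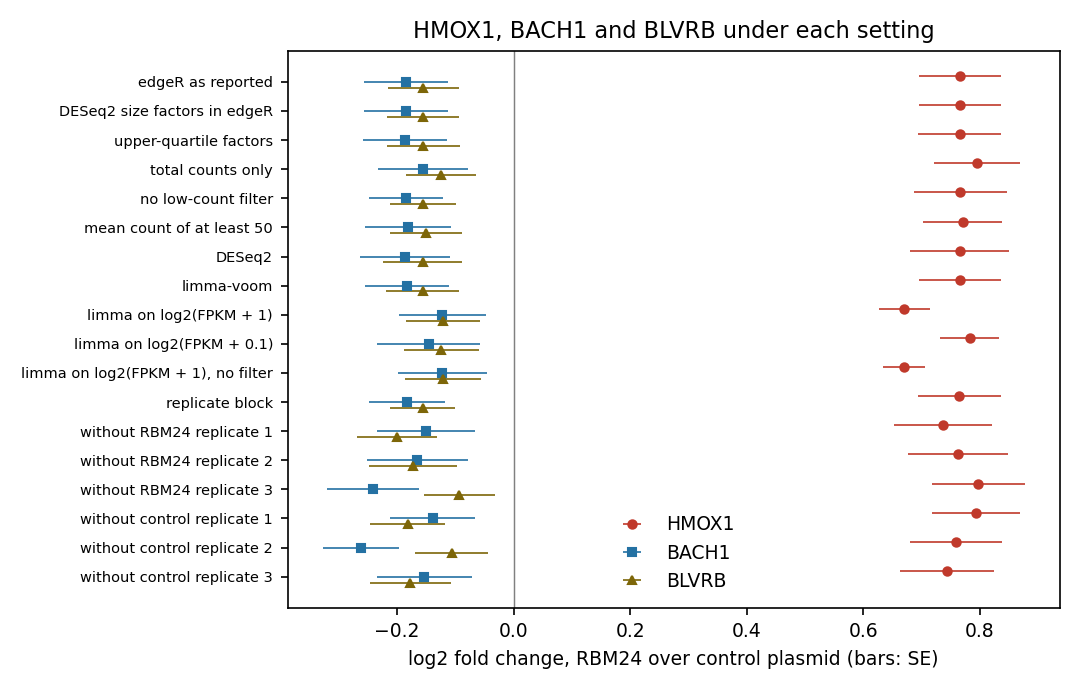
Log2 fold change (RBM24 over control plasmid) with its SE for HMOX1 (circles), BACH1 (squares) and BLVRB (triangles) in the reported fit and under 17 alternatives. HMOX1 stays between 0.67 and 0.80, BACH1 between -0.26 and -0.12, and BLVRB between -0.20 and -0.093.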

How the data were processed

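Per the submitters' processing notes, reads (150-nt pairs) were aligned to GRCh38 with HISAT2; for the version, gene counter, annotation, library kit and strand setting, nothing is given in the sources used here. Deposited counts are whole numbers per gene, unnormalised, and the deposited FPKM values, which by definition are scaled to gene length and library size, carry 2 decimals; how the authors computed them is not stated. CPM here is a count over the TMM-scaled library total. NC columns were read as control plasmid and OE_RBM24 columns as RBM24 libraries.

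Members and lists were chosen with earlier results of these data known. Counts were fitted for all genes in R 4.3.3 with edgeR 4.0.16 (filterByExpr, TMM, quasi-likelihood F test on group alone, Benjamini-Hochberg over 17887 genes, threshold 0.05); SE is the log2 fold change over the square root of F. No set test was run. Beside the members and RBM24, the text names genes called in each list, the 2 of highest mean FPKM in each pathway list, ferritin pseudogenes that passed the filter (the 2 most abundant with values, the rest as counts), and the 5 profiles nearest HMOX1. POR and CYB5R1 were named in addition. Alternatives used edgeR with other scaling or filters, DESeq2 1.42.0, limma 3.58.1 (voom, and log2(FPKM + 1) or log2(FPKM + 0.1)), a replicate block, and each library left out. The chi-square per gene between libraries was 4.20 to 30.1, so the libraries differed by more than sampling noise. The procedure was run on simulated counts with the same dispersion for every gene, unlike the data, so that run does not test the calls above. Coordinates are those of GENCODE 29, a release that need not be the authors'. Tables and figures used Python 3.11.15, pandas 2.3.3 and matplotlib 3.10.9.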

Additional observations from a re-analysis of the deposited data

How the results depend on the processing

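HMOX1 kept its direction and its call in all 17 alternative fits, with log2 fold changes from 0.67 to 0.80 and adjusted p from 6.66e-19 to 0.0162; leaving out 1 library at a time gave 0.737 to 0.797. The other 8 tested members were called in 0 of these fits, and the members called stayed at 1 higher and 0 lower. HMOX2, BLVRA and FTH1 had fold changes of both signs (13 positive and 4 negative, 1 and 16, and 15 and 2), none of them called. Genes called over the whole table numbered 305 higher and 341 lower with no low-count filter, 46 higher and 4 lower on log2(FPKM + 1), 57 higher and 5 lower with a pseudocount of 0.1, and 15 higher and 4 lower with a pseudocount of 1 and every gene kept; the cause was not tested. Leaving out 1 library at a time gave 61 to 171 higher and 29 to 198 lower. Among the other pathway genes, the lower count of 4 was 0 in each of the 3 FPKM fits and the higher count of 1 was 0 where FPKM went unfiltered; leaving out 1 library gave 0 to 1 higher and 0 to 5 lower, with 2 lower without control library 1. SLC11A2 and HFE kept their calls in 12 of 17 fits, NQO1 in 14, SLC39A8 in 10 and LCN2 in 9. In CPM the RBM24 over control ratio of HMOX1 plus HMOX2 was 1.07 in place of 1.13 in FPKM. CPM gives longer transcripts more weight, but single genes, where length cancels, also shifted between scales. HMOX1 stood at 1.74 in FPKM and 1.7 in the edgeR fit, and HMOX2 at 1.02 and 1.00. Scaled by total counts alone, the edgeR log2 fold changes of HMOX1 and HMOX2 were 0.795 and 0.033, against 0.766 and 0.0032 with TMM. In the control libraries HMOX1 made up on average 14.6% of the sum in FPKM and 10.4% in CPM. How much of the move from 1.13 to 1.07 each difference makes up was not tested. Deviations of same-numbered libraries from their group means correlated at 0.00724, 0.0555 and -0.00039 across genes, and those of different-numbered libraries at -0.109 to 0.0914. Same-numbered libraries thus shared no visible effect, which cannot show whether the cultures were paired. With the replicate block HMOX1 was at 0.764 (adjusted p = 2.58e-05) and 158 genes were higher and 135 lower, against 153 and 122, while calls of members and of other pathway genes were 1 and 0, and 1 and 4. HMOX1 and FECH were the lowest of the tested members in counts. Their SE of 0.0705 and 0.0657 lay below that of FTL (0.0751) and above that of HMOX2 (0.0517), and the effect of depth was not tested.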
